A study of Mus musculus with 12 samples.

Results

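The genes described here are 10 secreted and supporting factors of Sertoli cells, Cst9, Cst12, Aard, Rhox5, Espn, Ctsl, Gdnf, Kitl, Scx and Pdlim4, in testes of young mice with and without a functional Topaz1 gene. They were chosen by gene symbol, with earlier results of these data known. They make up 10 of the 19057 genes that had a named probe on the array, and 17 of its 45281 probes carry their names. Each gene is given by its named probe of highest mean over the 12 arrays. Whole testes came from C57Bl/6N mice, either wild-type (WT) or Topaz1-/- (KO), at postnatal day 15 (P15) or 20 (P20). The labels name no Cre driver and no treatment. Each of the 4 groups (WT P15, KO P15, WT P20, KO P20) held 3 biological repeats per the labels, which do not say whether a repeat is 1 animal or a pool, and each was hybridised to 1 Illumina mouse bead array.

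Sertoli cells are the somatic cells of the seminiferous tubule that nurse the germ cells. They secrete the ligand GDNF, which keeps spermatogonial stem cells dividing, and the KIT ligand, which differentiating spermatogonia need. They also release protease inhibitors and proteases into the tubule fluid, respond to androgen through genes such as Rhox5, and hold developing spermatids with actin bundles at junctions called ectoplasmic specializations. Between P15 and P20 the germ cells of the first spermatogenic wave move through meiotic prophase towards the first round spermatids, while Sertoli cells of the mouse have largely stopped dividing. In RNA from a whole testis, fewer cells of a type and less RNA per cell cannot be told apart.

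Intensities were quantile-normalized and are given as log2(intensity + 50). All 10 genes lay above the estimated background (log2 7.53) on all 12 arrays. The median raw intensity of an array was 128.2 to 143.4, and 47.9% to 51.9% of its probes were above background. Topaz1 had 0 named probes, so the genotype labels could not be checked against its transcript. Of 22 other Sertoli cell markers, 19 had a named probe and 16 of these were above background on all 12 arrays. At P15 the arrays of both genotypes differed in a summed intensity of 14 spermatocyte markers, which was 10173, 15029 and 28348 on WT P15 arrays 1, 2 and 3 and 25086, 14076 and 11138 on KO P15 arrays 1, 2 and 3. At P20 it was 82281, 91226 and 92668 in WT and 103878, 99699 and 100230 in KO. WT P15 array 3 and KO P15 array 1 were thus high within their groups and WT P20 array 1 was low, and the epididymis transcript Defb2 was high on KO P20 arrays 1 and 3 (log2 10.83 and 11.14) and not on array 2 (7.50). Results were also computed without WT P20 array 1 and KO P15 array 1, without KO P20 arrays 1 and 3, and without each array in turn.

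**Figure D1:**
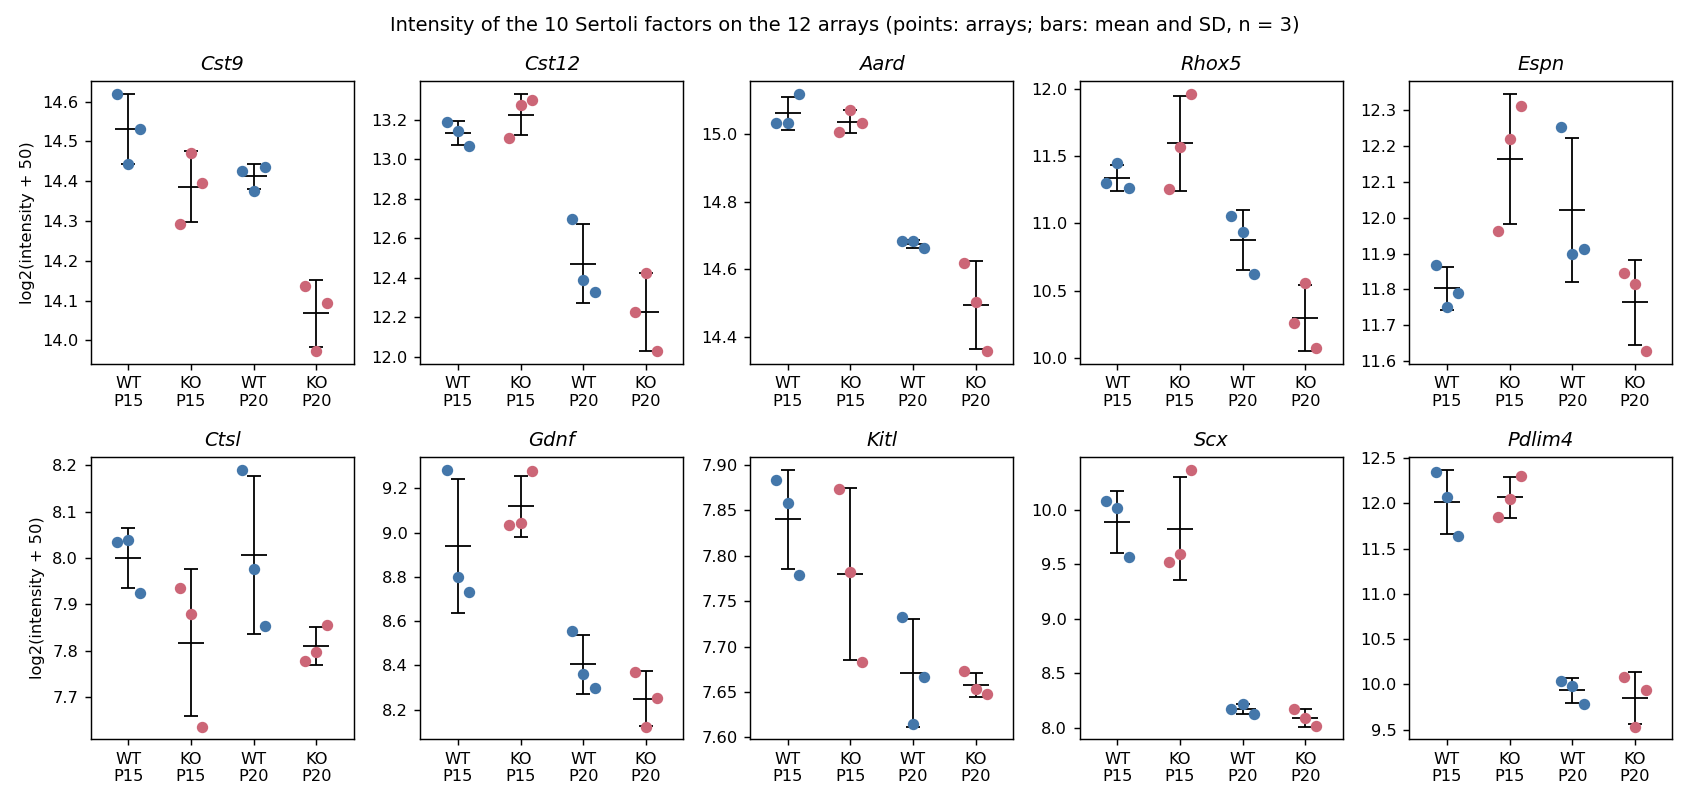
Normalized intensity of the 10 Sertoli factors, as log2(intensity + 50), on each array of the 4 groups. Points are arrays, horizontal bars are means and whiskers are SD (n = 3), and each panel has its own axis. Pdlim4 and Scx lay far lower at P20 than at P15 in both genotypes, and all 3 KO P20 arrays of Cst9 lay below every other array.

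The comparison of KO with WT testes asks whether the loss of Topaz1 in these mice is accompanied by a change in these somatic transcripts. At P20 only Cst9 fell in KO testes, by 0.34 on the log2 scale, and the other 9 genes did not pass the test. At P15, 0 of the 10 genes passed. The test was limma over all 45281 probes with Benjamini-Hochberg adjustment and a threshold of 0.05. At P20 it called 1.04% of all probes, 0.311% of them as lower in KO, and at P15 it called 0.00442%. All 10 genes had a negative change at P20, where 48.3% of all measured genes did. Their median change at P20 was -0.19, against 0.00293 over all genes. Without WT P20 array 1 the median was -0.12 and 9 of the 10 changes were negative. At P15 the median was 0.01, with 5 negative and 5 positive changes. Without WT P20 array 1 and KO P15 array 1 together it was 0.12 at P15, with 4 negative changes.

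**Figure D2:**
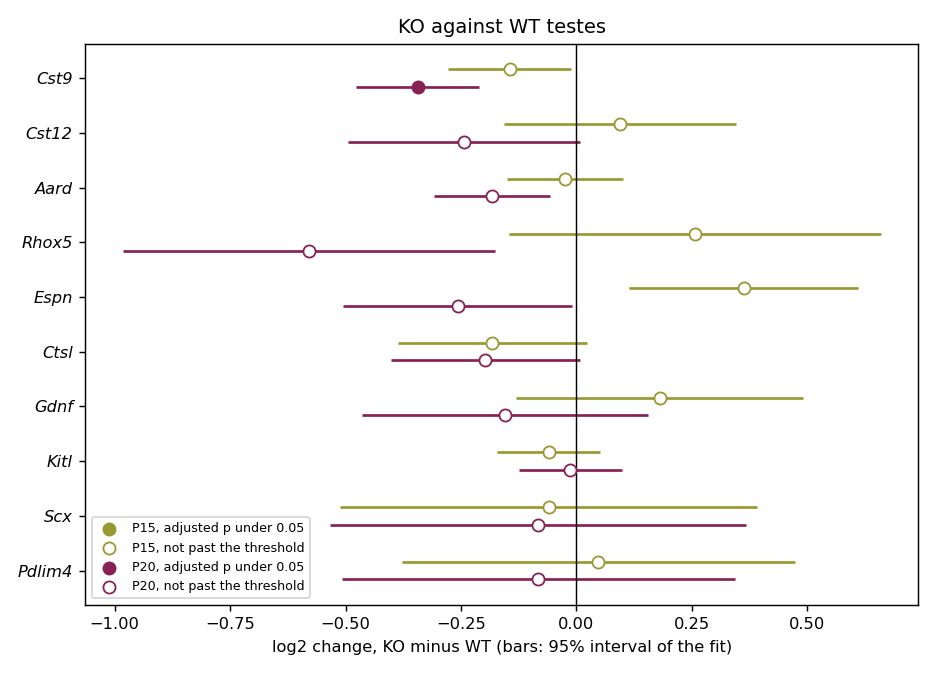
Log2 change of each gene in KO against WT testes at P15 and at P20. Points are limma estimates, bars are 95% intervals of the fit and a filled point has an adjusted p under 0.05. All 10 points for P20 lie left of 0 and Cst9 is the filled one, while the P15 points lie on both sides.

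Cst9 encodes a secreted member of the cystatin family of cysteine protease inhibitors, known in mice as testatin and found in Sertoli cells and their fetal precursors. Its log2 intensity was 14.43, 14.38 and 14.43 on the WT P20 arrays and 14.14, 13.97 and 14.09 on the KO P20 arrays. All KO P20 arrays lay below all WT P20 arrays. The change was -0.34 ± 0.06 (SE, n = 3 per group), or 1.27-fold, with a 95% interval from -0.48 to -0.21 and an adjusted p of 0.0299 in limma. At P15 the intensity was 14.62, 14.44 and 14.53 in WT and 14.29, 14.47 and 14.39 in KO. The P15 ranges overlapped, and the change of -0.14 ± 0.06 (SE) had an adjusted p of 0.625. The change at P20 kept its direction under all 27 alternatives tried, from -0.44 to -0.25, but its adjusted p ran from 0.00701 to 0.361 and passed in 14. Of the 14, 6 left out a P15 array, which kept the P20 values of Cst9 as they were. The authors' values were nearly the same numbers, and averaging probes left the change as it was for a gene with 1 probe. Cst9 did not pass when any 1 of the 6 P20 arrays was left out (adjusted p = 0.0559 to 0.0950). Its probe ranked between 27 and 93 on each array, near the top, where quantile normalization sets values by rank. The change was -0.28 under cyclic loess and -0.25 under 75th percentile scaling, and it did not pass in limma there (adjusted p = 0.109 and 0.106).

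**Figure D3:**
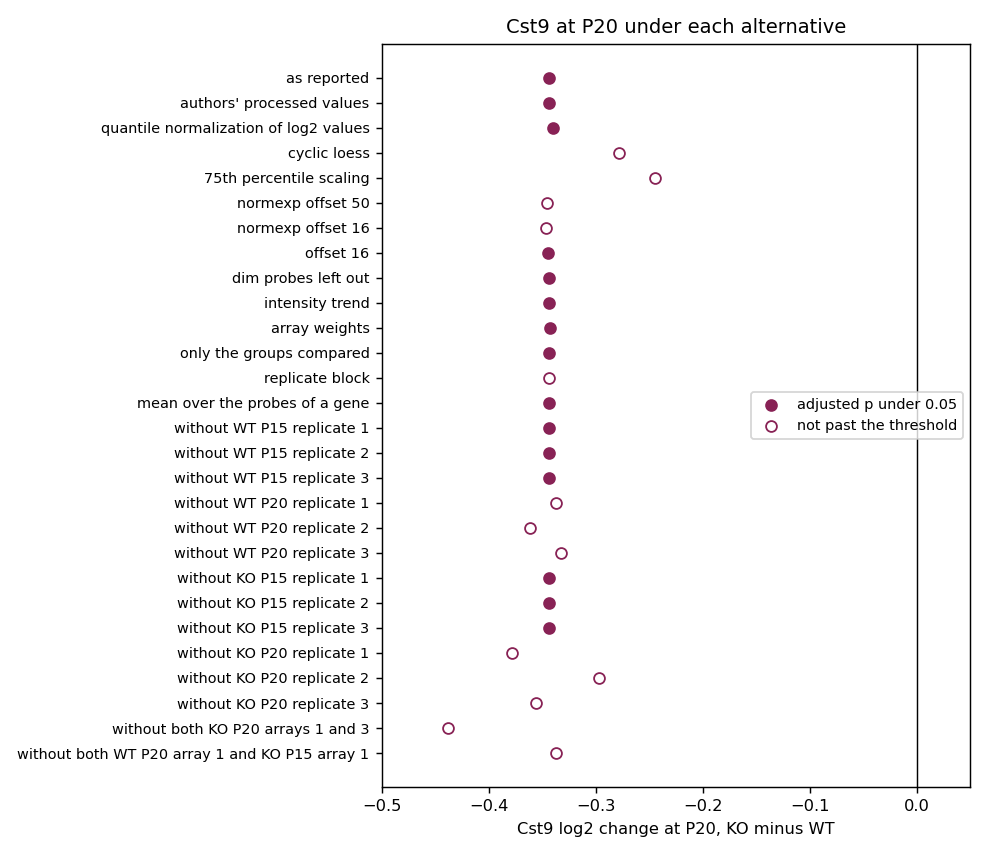
Log2 change of Cst9 in KO against WT testes at P20 as reported and under the 27 alternatives, each on a row of its own. Filled points have an adjusted p under 0.05. Every point lies between -0.44 and -0.25, and those without a P20 array are open.

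Cst12, a related cystatin, lies 41714 bases before Cst9 on chromosome 2. The RefSeq gene table of assembly GRCm38.p6 puts Cst12 at chr2:148789365-148793432 and Cst9 at chr2:148835147-148838737. Its log2 intensity was 13.19, 13.14 and 13.06 on the WT P15 arrays, 13.11, 13.27 and 13.30 in KO P15, 12.70, 12.39 and 12.33 in WT P20 and 12.23, 12.42 and 12.03 in KO P20. The genotypes overlapped at each age, and both ages were separate in each genotype. The KO change was 0.09 ± 0.11 (SE) at P15 and -0.24 ± 0.11 (SE) at P20, with adjusted p-values of 0.918 and 0.437. Within 500 kb on either side of Cst9 there were 12 other measured genes besides Cst12, 8 of them above background on all 12 arrays. The 12 were chosen for a look after the Cst9 result was seen, and 0 of them passed at P20. Among them were Cst3, the cystatin C of most tissues, with a change of -0.40 ± 0.10 (SE, adjusted p = 0.0992), and Cstdc1 with -0.43 ± 0.20 (SE, adjusted p = 0.432). Others had positive estimates, as did Napb with 0.24 ± 0.07 (SE, adjusted p = 0.134) and Thbd with 0.43 ± 0.16 (SE, adjusted p = 0.301).

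The start regions of these neighbouring cystatin genes are shown because they are the pair of family members among the 10 and one of them carries the P20 result. RefSeq windows of 300 bases, from 250 before to 50 after the gene start (GRCm38.p6, plus strand), lie at chr2:148834897-148835196 for Cst9 and chr2:148789115-148789414 for Cst12. Capitals mark matches to CANNTG, the E-box bound by basic helix-loop-helix factors, which reads the same on both strands.
Cst9: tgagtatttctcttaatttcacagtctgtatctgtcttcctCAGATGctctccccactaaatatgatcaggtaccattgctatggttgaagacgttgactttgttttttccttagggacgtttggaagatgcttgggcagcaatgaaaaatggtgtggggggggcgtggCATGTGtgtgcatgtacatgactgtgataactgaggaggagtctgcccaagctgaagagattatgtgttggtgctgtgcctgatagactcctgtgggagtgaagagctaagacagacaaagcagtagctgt
Cst12: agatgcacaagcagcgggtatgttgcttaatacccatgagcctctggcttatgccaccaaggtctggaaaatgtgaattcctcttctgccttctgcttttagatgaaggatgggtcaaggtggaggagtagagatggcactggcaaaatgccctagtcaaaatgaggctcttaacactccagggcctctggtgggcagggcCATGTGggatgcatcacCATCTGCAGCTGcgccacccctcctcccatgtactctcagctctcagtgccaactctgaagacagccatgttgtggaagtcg
The Cst9 window held 2 matches to CANNTG and the Cst12 window 3. Such a match was present in 72.3% of all 32851 RefSeq windows of this length and in 9 of the 11 windows of the 10 genes, of which 8 had a window. Motifs of SOX and GATA factors and the TATA box were searched on both strands, and neither cystatin window held one of them. AACAAT, bound by SOX factors, was found in 2 of the 11 windows of the 10 genes and in 10.7% of all windows. AGATAA, bound by GATA factors, was in 1 of the 11 and in 11.2% of all windows. The TATA box, searched as TATAAA, was in 2 of the 11 and in 13.6% of all. These matches are descriptions of the letters and were not tested as binding sites.

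Ctsl encodes cathepsin L, a cysteine protease that Sertoli cells release and many cystatins inhibit, though inhibition by Cst9 or Cst12 was not examined. Its log2 intensity was 8.03, 8.04 and 7.92 in WT P15, 7.94, 7.88 and 7.64 in KO P15, 8.19, 7.98 and 7.85 in WT P20 and 7.78, 7.80 and 7.86 in KO P20. Neighbouring groups in the order of the means overlapped throughout. The KO change was -0.18 ± 0.09 (SE, adjusted p = 0.697) at P15 and -0.20 ± 0.09 (SE, adjusted p = 0.441) at P20. Of 19 other measured cystatins and cathepsins, 11 were above background on all 12 arrays and 2 on none. Of the 19, 0 passed in either direction at P15 or at P20, and their median change at P20 was -0.000145. The brightest of them were Cst3 and Cstb, a cystatin of the cell interior, and the P20 change of Cstb was -0.19 (adjusted p = 0.560).

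Rhox5 is a homeobox gene of the X chromosome (chrX:37754608-37808878) that androgen controls in Sertoli cells. Its log2 intensity was 11.06, 10.94 and 10.63 on the WT P20 arrays and 10.26, 10.56 and 10.07 on the KO P20 arrays. All KO arrays lay below all WT arrays at P20. The change was -0.58 ± 0.18 (SE, n = 3 per group), or 1.49-fold, with a 95% interval from -0.98 to -0.18. This was the largest P20 estimate of the 10 genes, but limma's adjusted p of 0.201 did not pass (unadjusted p = 0.00940). At P15 the arrays read 11.30, 11.45 and 11.27 in WT and 11.25, 11.57 and 11.96 in KO. The groups overlapped at P15, with a change of 0.26 ± 0.18 (SE, adjusted p = 0.818). Of the 8 other measured genes of the Rhox cluster, 4 were above background on all 12 arrays and 1 on none. Of the 8, 0 passed at either age. The brightest were Rhox8, also expressed in Sertoli cells, with a P20 change of -0.46 (adjusted p = 0.169), and Rhox13, a germ cell gene, with -0.11 (adjusted p = 0.849).

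Espn encodes espin, an actin-bundling protein of the ectoplasmic specialization. On its brightest probe the log2 intensity was 11.87, 11.75 and 11.79 in WT P15 against 11.96, 12.22 and 12.31 in KO P15. At P20 it was 12.25, 11.90 and 11.91 in WT against 11.85, 11.82 and 11.63 in KO. All KO arrays lay above all WT arrays at P15 and below them at P20. The change was 0.36 ± 0.11 (SE) at P15, with an adjusted p of 0.509, and -0.26 ± 0.11 (SE) at P20, with an adjusted p of 0.395. Without WT P20 array 1 and KO P15 array 1 the P15 change was 0.46 with an adjusted p of 0.0466. The difference between the KO effects at P20 and P15 was -0.62 ± 0.16 (SE), with a 95% interval from -0.97 to -0.27, an unadjusted p of 0.00275 and an adjusted p of 0.296. A second Espn probe above background on all 12 arrays gave 0.20 (adjusted p = 0.756) at P15 and -0.40 (adjusted p = 0.170) at P20. The other 2 Espn probes were above background on 10 and 7 arrays, and their P20 changes were 0.07 and 0.01. Of 19 other measured genes of ectoplasmic specialization and actin, 0 passed at either age. The brightest were Nectin2, a junction receptor on the Sertoli side, with a P20 change of -0.35 (adjusted p = 0.255), and Plec, the cytoskeletal linker plectin, with 0.16 (adjusted p = 0.688).

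Aard encodes a protein rich in alanine and arginine whose function is little known. Its log2 intensity was 15.03, 15.03 and 15.12 in WT P15 and 15.01, 15.07 and 15.03 in KO P15, where the genotypes overlapped. At P20 it was 14.68, 14.68 and 14.66 in WT against 14.62, 14.50 and 14.36 in KO, with all KO arrays below all WT arrays. The P20 change of -0.18 ± 0.06 (SE), or 1.13-fold, did not pass (adjusted p = 0.196, unadjusted p = 0.00896), and the P15 change was -0.02 ± 0.06 (SE). Cst9, Aard, Rhox5 and Espn were the 4 genes whose P20 arrays were fully lower in KO, a pattern seen in 9.26% of all probes. These 4 were also those with an unadjusted p under 0.05 at P20, where 12% of all probes had one. At P15, 1 gene, Espn, was fully higher in KO, as were 5.7% of all probes, and Cst9 and Espn had an unadjusted p under 0.05, as did 7.59%.

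Gdnf and Kitl are the ligands through which Sertoli cells act on spermatogonia. The Gdnf arrays read 9.28, 8.80 and 8.73 in WT P15, 9.03, 9.04 and 9.28 in KO P15, 8.56, 8.36 and 8.30 in WT P20 and 8.37, 8.12 and 8.25 in KO P20 on the log2 scale. The genotypes overlapped at both ages. The KO change of Gdnf was 0.18 ± 0.14 (SE, adjusted p = 0.838) at P15 and -0.15 ± 0.14 (SE, adjusted p = 0.761) at P20, with a 95% interval at P20 from -0.46 to 0.16. Kitl lay just above background, with group means of 7.84 ± 0.05 (WT P15), 7.78 ± 0.10 (KO P15), 7.67 ± 0.06 (WT P20) and 7.66 ± 0.01 (KO P20) (SD, n = 3). Its KO change at P20 was -0.01 ± 0.05 (SE, adjusted p = 0.962), with a 95% interval from -0.12 to 0.10. The second Gdnf probe and the other 2 Kitl probes were above background on 0 of 12 arrays. Of 17 other genes listed for GDNF and KIT signalling in germ cells, 0 passed at P15 or P20, with median changes of 0.09 and -0.02. Whether each of them answers these ligands was not examined. The brightest were Sohlh1, a transcription factor of differentiating spermatogonia, with -0.02 at P20 (adjusted p = 0.984), and Kit, the receptor of the KIT ligand, with -0.44 (adjusted p = 0.0576). Kit passed as lower in KO at P20 in 7 of 25 alternatives, over which its adjusted p ran from 0.0299 to 0.459.

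Scx and Pdlim4 showed no genotype change that passed. Scx encodes scleraxis, a transcription factor best known from tendon and also described in rat Sertoli cells, and Pdlim4 encodes an adaptor with a PDZ and a LIM domain that binds the actin cross-linker alpha-actinin. The KO change of Scx was -0.06 ± 0.20 (SE, adjusted p = 0.982) at P15 and -0.08 ± 0.20 (SE, adjusted p = 0.932) at P20. That of Pdlim4 was 0.05 ± 0.19 (SE, adjusted p = 0.985) and -0.08 ± 0.19 (SE, adjusted p = 0.928). The intervals at P20 ran from -0.53 to 0.37 for Scx and from -0.51 to 0.34 for Pdlim4. A second Pdlim4 probe, above background on 11 arrays, gave -0.02 at P15 and 0.04 at P20. Of the 5 other Pdlim genes 0 passed at either age, and the brightest, Pdlim3 and Pdlim1, had P20 changes of -0.00336 and 0.25.

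Whether the KO effect differed between the ages was tested as the difference of the P20 and P15 effects. Of the 10 genes 0 passed in limma, against 0.0552% of all probes called. Cst9, Rhox5 and Espn had an unadjusted p under 0.05, as did 7.07% of all probes. The difference was -0.83 ± 0.26 (SE, adjusted p = 0.450) for Rhox5 and -0.20 ± 0.08 (SE, adjusted p = 0.681) for Cst9, so the Cst9 effects at the 2 ages were not shown to differ. The difference was negative for 9 genes and its median was -0.18, against -0.00445 over all genes.

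Between P15 and P20 most of the 10 genes fell. In WT testes 6 fell and 0 rose, where 20.1% of all probes passed and 11.8% were lower at P20. In KO testes 8 fell and 0 rose, where 25.6% of all probes passed and 15.5% were lower. The median change with age was -0.42 in WT and -0.71 in KO, against -0.02 over all genes in either. At P20 all 3 arrays were below all 3 P15 arrays for 8 genes in WT and 9 in KO, a pattern seen in 22.3% and 21.3% of all probes. The age changes in WT and KO come from different arrays, and the test of their difference is the one given above.

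**Figure D4:**
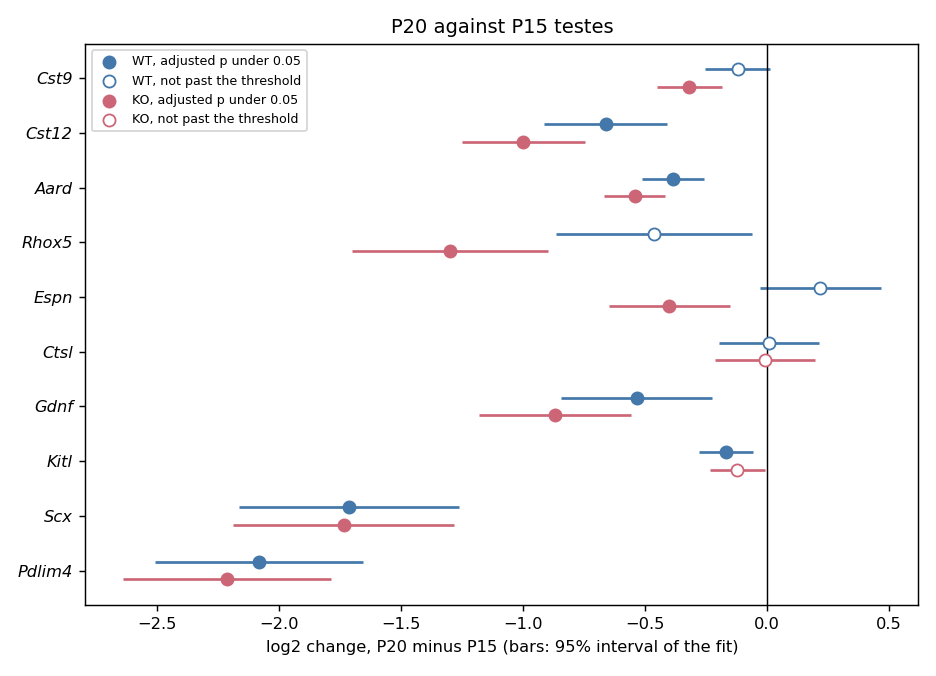
Log2 change of each gene from P15 to P20 in WT and in KO testes. Points are limma estimates, bars are 95% intervals of the fit and a filled point has an adjusted p under 0.05. Pdlim4 and Scx lie farthest left in both genotypes, while Ctsl lies at 0 in both.

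Pdlim4 and Scx had the steepest falls with age. The Pdlim4 arrays read 12.34, 12.07 and 11.64 in WT P15, 11.85, 12.05 and 12.30 in KO P15, 10.04, 9.98 and 9.78 in WT P20 and 10.08, 9.54 and 9.94 in KO P20. The ages were widely separate and the genotypes overlapped. Pdlim4 fell 4.24-fold in WT (log2 -2.08 ± 0.19, SE, adjusted p = 4.06e-05) and 4.64-fold in KO (log2 -2.21 ± 0.19, SE, adjusted p = 1.7e-05). A second Pdlim4 probe, above background on 11 of 12 arrays, fell less. It read 8.01, 7.94 and 7.86 in WT P15 and 7.59, 7.51 and 7.58 in WT P20. In KO it read 7.83, 7.92 and 8.00 at P15 and 7.65, 7.59 and 7.56 at P20. The Scx arrays read 10.08, 10.02 and 9.56 in WT P15, 9.52, 9.59 and 10.37 in KO P15, 8.17, 8.22 and 8.13 in WT P20 and 8.17, 8.09 and 8.01 in KO P20. The ages were again separate and the genotypes overlapped. Scx fell 3.28-fold in WT (log2 -1.71 ± 0.20, SE, adjusted p = 0.000214) and 3.33-fold in KO (log2 -1.74 ± 0.20, SE, adjusted p = 0.000124). At P15 Pdlim4 and Scx were lowest in WT on array 3 and lowest in KO on array 1, the arrays with the highest spermatocyte sums. Of the tendon markers, Tnmd and Mkx were above background on 1 array each and Thbs4 on 0. Of the 12 fibroblast and tendon markers together, 3 fell with age in each genotype. Of all probes 11.8% were lower at P20 in WT and 15.5% in KO. Of the other Pdlim genes 4 of 5 fell in each genotype, a count that ran from 1 to 4 in each over 25 alternatives. It was 1 in WT under cyclic loess and without WT P15 array 1 or array 2, and 1 in KO without KO P20 arrays 1 and 3.

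Rhox5 fell 2.46-fold with age in KO testes (log2 -1.30 ± 0.18, SE, adjusted p = 0.000388), while its change in WT was -0.46 ± 0.18 (SE, adjusted p = 0.109). The WT change passed in 4 of the 27 alternatives (adjusted p = 0.0318 to 0.0496), which were array weights, the fit to the WT groups only, and the fits without KO P15 array 3 or without WT P20 array 1 and KO P15 array 1. Its groups ran from KO P15 and WT P15, which overlapped, to WT P20 and then KO P20, each separate from the group before. Cst12 fell by 0.66 in WT and by 1.00 in KO, and Aard by 0.39 and 0.54, with adjusted p-values from 5.79e-05 to 0.00212. The call of Aard in WT was lost under cyclic loess, 75th percentile scaling and normexp with an offset of 16. Gdnf fell by 0.53 in WT (adjusted p = 0.0207) and by 0.87 in KO (adjusted p = 0.000959). The WT call of Gdnf was lost without WT P20 array 2 or array 3 (adjusted p = 0.0674 and 0.0819), under cyclic loess (0.0605) and in the fit to the WT groups only (0.0550).

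Cst9 fell with age in KO by 0.32 (adjusted p = 0.00258), and its WT change of -0.12 did not pass (adjusted p = 0.224). The WT change was -0.24 under cyclic loess and -0.25 under 75th percentile scaling and passed there (adjusted p = 0.0351 and 0.0168), and the KO call was lost under normexp with an offset of 16 (adjusted p = 0.128). Espn fell by 0.40 in KO (adjusted p = 0.0222), a call lost in 8 of the 27 alternatives (adjusted p = 0.0577 to 0.223). These were cyclic loess, 75th percentile scaling, normexp with an offset of 16, the mean over probes, and the fits without KO P15 array 2, KO P15 array 3, KO P20 array 3 or both KO P20 arrays 1 and 3. In WT all 3 P20 arrays of Espn were above all P15 arrays, as in 14% of all probes, and the change of 0.22 did not pass (adjusted p = 0.234). Kitl fell by 0.17 in WT (adjusted p = 0.0384), a call that held in 13 of the 27 alternatives and was lost in 8 of the 12 in which 1 array was left out (adjusted p up to 0.136). The Kitl change in KO was -0.12 (adjusted p = 0.115), and it was -0.17 and passed without KO P15 array 3 (adjusted p = 0.0268). Ctsl had changes of 0.01 in WT and -0.01 in KO, with adjusted p-values of 0.975 in each.

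Other Sertoli cell genes were set beside the 10. Of the 19 measured Sertoli identity factors and hormones, 0 rose and 1 fell in KO at P20, and 18 did not pass. The gene that fell was Shbg, sex hormone binding globulin, with a log2 change of -0.67 (adjusted p = 0.0421), a call that held in 13 of 25 alternatives. All 19 changes were negative at P20, with a median of -0.13. Under cyclic loess 18 were negative, under 75th percentile scaling 17, and without KO P20 arrays 1 and 3 it was 16. At P15, 1 gene fell, Trf, the iron carrier transferrin, with -0.65 (adjusted p = 0.0191), and this call held in 17 of 25 alternatives. For Shbg and Trf alike, the alternatives that left out only an array of the other age kept the estimate as it was. The median at P15 was -0.000312. With age 11 of the 19 fell in WT and 16 in KO, and 0 rose in either, with a median of -0.59 in each, where 11.8% of all probes were lower in WT and 15.5% in KO. Over 25 alternatives these counts ran from 10 to 13 in WT and from 7 to 16 in KO, with the 7 found without KO P20 arrays 1 and 3. Of the 17 genes listed for GDNF and KIT signalling, 5 fell and 1 rose with age in WT. In KO 9 fell and 1 rose. Of the 19 cystatins and cathepsins 10 fell in WT, and 7 fell and 1 rose in KO. Of the 8 Rhox genes 3 fell in WT and 4 in KO. Of the 19 actin and junction genes 7 fell and 2 rose in WT, and 9 fell and 2 rose in KO. Over the alternatives the falls of the GDNF and KIT list numbered 4 to 6 in WT and 5 to 10 in KO. The number of falls ran from 7 to 10 in WT and 6 to 8 in KO for the cystatins and cathepsins. It ran from 2 to 3 and 3 to 4 for the Rhox genes, and from 2 to 8 and 7 to 11 for the actin and junction genes.

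**Figure D5:**
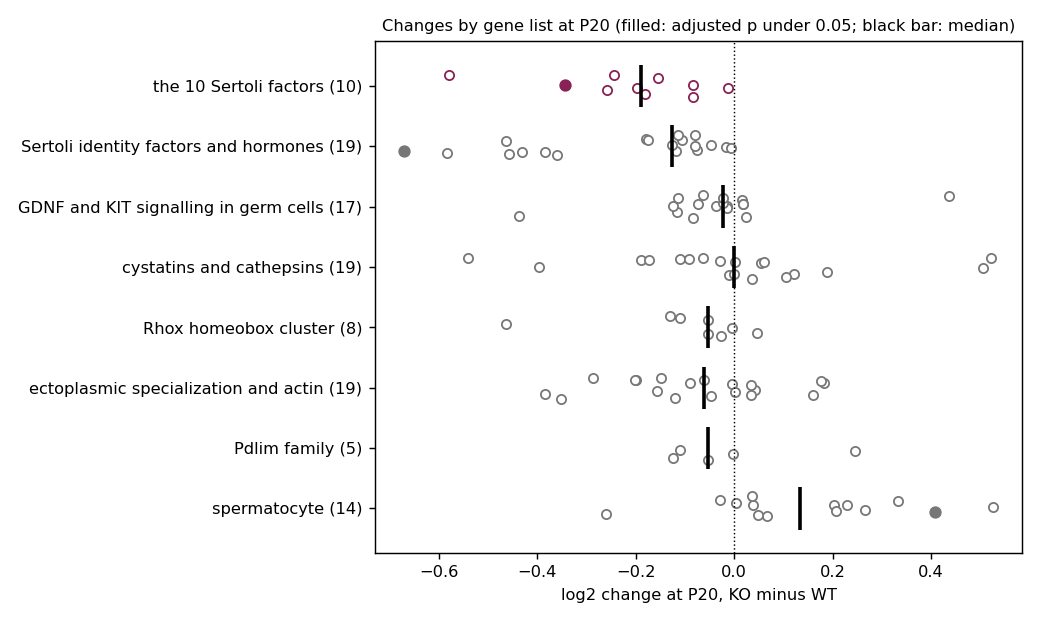
Log2 change at P20 in KO against WT of every measured gene of each list, with the number of genes in brackets. Each point is a gene, filled points have an adjusted p under 0.05 and black bars are medians. All points of the 10 Sertoli factors and of the 19 Sertoli identity genes lie below 0, and the spermatocyte genes lie mostly above it.

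Markers of other cells moved with age and in part with genotype. The summed intensity of the 10 genes was 76892 to 81176 in WT P15, 73142 to 81076 in KO P15, 60050 to 63695 in WT P20 and 48391 to 54522 in KO P20. That of the 14 spermatocyte markers was higher on every KO P20 array than on every WT P20 array, and 1 of the 14, Ovol1, rose in KO at P20 (log2 0.41, adjusted p = 0.0397), a call that held in 13 of 25 alternatives. With age 9 of the 14 rose in each genotype, where 20.1% of all probes passed in WT and 25.6% in KO, in either direction. Sycp3, Dmc1 and Mybl1 were above background on 0 arrays. WT P20 array 1 had the lowest spermatocyte sum of its group and was highest for 8 of the 10 genes. KO P15 array 1 had the highest spermatocyte sum of its group and was lowest for 8 of the 10. WT P15 array 3 had the highest spermatocyte sum of its group and was lowest for 7 of the 10, while KO P20 array 1 had the highest sum of its group and was highest for 7 of the 10. The part of the germ cell level in the results was not tested.

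The 8 adipocyte markers summed to 1794 to 1951 in KO P20 and 1023 to 1207 in WT P20, and 2 of them, Adipoq and Cyp2e1, rose in KO at P20. Their calls held in 25 and 16 of 25 alternatives. The 13 epididymis markers summed to 1650 to 4126 in KO P20 and 1603 to 1894 in WT P20, with 5 of them above background on 0 arrays. Without KO P20 arrays 1 and 3, where Defb2 was high, all 10 genes again had a negative P20 change with a median of -0.21, and Cst9 had -0.44 (adjusted p = 0.109), with the lone KO P20 array assumed to vary like the other groups. Of the Leydig, peritubular, fibroblast and tendon, endothelium, macrophage, spermatogonia, round spermatid and erythroid markers 0 passed at P20. Some of their sums were nevertheless separate between the genotypes. The 12 spermatogonia markers summed to 5874 to 6190 in KO P20 and 6593 to 7407 in WT P20, and the 10 macrophage markers to 4019 to 4656 and 4944 to 5433. The 7 Leydig markers summed to 3741 to 4207 in KO P20 and 4355 to 5237 in WT P20. Of these 7, only 3 had a negative P20 change, the median change was 0.004, and 3 were above background on all 12 arrays. On the KO P15 arrays alone the Leydig sum ran from 1963 to 9603. The P20 change was negative for 10 of the 12 spermatogonia markers and 8 of the 10 macrophage markers. The spermatogonia, macrophage and Leydig sums were thus lower on every KO P20 array than on every WT P20 array. The same held for the sum of the 10 genes. It also held for the 19 Sertoli identity factors and hormones (43275 to 48733 in KO P20, 49116 to 58243 in WT P20) and the 8 Rhox genes (3246 to 3518, 3783 to 4353). Sums of linear intensities weigh bright genes most, among the 10 genes Aard and Cst9. The part of the other cell types in the results was not tested.

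Over the 12 arrays, the genes closest in pattern were found among 9743 genes above background on all arrays, by the root mean square difference of log2 values after each gene's own mean was removed. For Pdlim4 these were Dlk1 (0.170), Scx (0.274) and Sel1l3 (0.321), against a median of 1.03 over all candidates. For Scx they were Sohlh1 (0.221), Tnfrsf12a (0.223) and Nfix (0.246). For Rhox5 they were Uxt (0.129), Furin (0.148) and Smim41 (0.176), and for Cst9 they were Qars (0.0704), Josd1 (0.0825) and Grk6 (0.0825). Another of the 10 genes, Scx, was thus among the closest 3 of Pdlim4, and none was among the closest 3 of Scx, Rhox5 or Cst9. These distances describe the 12 arrays, which share the step between the ages.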

How the data were processed

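Total RNA of whole testes was hybridised to Illumina mouse bead arrays. The submitters' processing notes name BeadStudio, with no version. The authors deposited a table of linear intensity values that were not normalized and a table of processed intensities. Quantile normalization of the former differed from the authors' processed values by 4.79e-05 in the median and by no more than 0.00833 in log2 units. No detection p-values or control probes were used, so the planned correction by negative controls was replaced by an offset of 50. Intensities were not background-subtracted, which makes fold changes of dim probes smaller.

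Intensities of the 12 arrays were quantile-normalized, the offset was added and log2 was taken. The fit to all 45281 probes used limma 3.58.1 under R 4.3.3 (4 group means, 8 residual degrees of freedom), with Benjamini-Hochberg adjustment over all probes for each of 5 comparisons. The fit was tested on simulated data with independent noise between arrays. The planted shifts were larger than the Cst9 change at P20, so this test does not bear on that change. Background was the mode of the log2 intensities plus 1.645 SD. Of the probes 34885 had 1 symbol in the array annotation, 18 had several and 10378 were not listed there. No probe coordinates were used, and gene positions and start windows are those of RefSeq on GRCm38.p6. If repeats shared a source, p-values measure only the spread between arrays, and 3 arrays per group limit the precision. No pair of arrays held identical values (0 pairs). The replicate number was not used as a pairing, except in the replicate block alternative. Whether arrays of the same number shared a batch could not be told.

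The 10 genes, the 6 related lists and the 11 lists of markers of other cells were chosen with earlier results of these data known. All 10 genes are named. From a related list the genes past the threshold in a KO comparison, at most 4, or else the 2 of highest mean were named, and other names from lists were chosen after their values were seen. Alternatives were the authors' values, other normalizations, background corrections and offsets, array weights, a filter on dim probes, an intensity trend, fewer groups, the replicate block, averaging of a gene's probes and left-out arrays.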

Additional observations from a re-analysis of the deposited data

Results flagged for a closer look

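On the brightest Espn probe every KO array lay above every WT array at P15 and below every WT array at P20. The P15 pattern was seen in 5.7% of all probes and the P20 pattern in 9.26%, and the share with both was not counted. The change passed at neither age in limma (adjusted p = 0.509 and 0.395). Of the other 3 Espn probes, 1 had the same signs at both ages, and the 2 dim ones had P20 changes of 0.07 and 0.01. The difference between the KO effects was -0.62 on the log2 scale (unadjusted p = 0.00275), and with Benjamini-Hochberg adjustment over all probes in limma it did not pass (adjusted p = 0.296). Over the 26 alternatives that could be computed it kept its sign, from -0.72 to -0.29, with an adjusted p from 0.0942 to 0.698.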

How the results depend on the processing

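The P20 count of 1 gene, Cst9, became 0 under cyclic loess, 75th percentile scaling, normexp with an offset of 50 or 16 and the replicate block. It also became 0 without KO P20 arrays 1 and 3 and without WT P20 array 1 and KO P15 array 1, and it was 0 to 1 with 1 array left out. The P15 count of 0 became 1, Espn, without WT P20 array 1 and KO P15 array 1, where the count over all probes was 139. The difference count stayed at 0, and the age counts ran from 4 to 7 in WT and 6 to 8 in KO. Of 1340 values of single genes under the 27 alternatives, 1246 kept their direction and side of the threshold, 43 lost a call, 8 gained one and 43 changed sign. The cause of these shifts was not tested. Many estimates could not move. Leaving out an array outside the groups compared, the filter on dim probes and the intensity trend keep them, and the authors' values were nearly the same numbers. The count kept, and the tallies of alternatives given for single genes, are thus no measure of independent support.

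All sign changes were of values that did not pass. At P15 Aard had 0.0722 under cyclic loess and 0.13 under 75th percentile scaling, Kitl 0.00756 under that scaling, Pdlim4 -0.00795 with array weights and Scx 0.0928 without WT P20 array 1 and KO P15 array 1. At P20 Kitl had 0.0295 under 75th percentile scaling, 0.00113 with array weights and 0.0177 without those 2 arrays. The difference of the effects was 0.00771 and 0.10 for Scx under that scaling and array weights, and 0.00464 and 0.14 for Ctsl under normexp with an offset of 16 and without those 2 arrays. The age change of Ctsl was -0.0229 with array weights and -0.0842 without those 2 arrays in WT, and 0.0837, 0.00703 and 0.0521 under cyclic loess, normexp with an offset of 16 and without those 2 arrays in KO. With 1 array left out, ranges crossed 0 for Aard (-0.0424 to 0.00421), Scx (-0.33 to 0.0928) and Pdlim4 (-0.14 to 0.21) at P15 and for Kitl (-0.0412 to 0.0177) and Pdlim4 (-0.20 to 0.0747) at P20. They also did for the differences of Ctsl (-0.11 to 0.0770), Kitl (-0.00113 to 0.0939), Scx (-0.18 to 0.25) and Pdlim4 (-0.29 to 0.0595), and for the age change of Ctsl in WT (-0.0842 to 0.0842) and KO (-0.0980 to 0.0521).

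Over all probes the P15 count of 2 ran from 0 to 150, the P20 count of 472 from 130 to 905, the difference count of 25 from 1 to 69 and the KO age count of 11581 from 7081 to 12131. Under 75th percentile scaling the median change of all probes was 0.11 at P15 and 0.05 at P20. Of 18 pairs of arrays with the same replicate number, 3 had a correlation of their deviations over 0.1 (range -0.35 to 0.19), and 1 of 12 arrays correlated best with its own number. The replicate number as a block left Cst9 at -0.34 (adjusted p = 0.0694) at P20. Genes just above background, such as Kitl and Ctsl, have their changes compressed by it.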
